A study of Citrus sinensis with 30 samples.

Results

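Between 60 and 90 days after storage (DAS), the last interval of a storage series of ‘Bingtangcheng’ sweet orange (BTSO), 268 genes were higher and 210 were lower in the juice sacs. Sucrose-phosphate synthase 4, a pair of SWEET sugar carriers, valencene synthase, a polygalacturonase and a basic endochitinase were among those lower at 90 DAS, and F-box proteins, trehalose-phosphate phosphatases, expansin-like A1 and polyubiquitin were among those higher. Ethylene response factors, U-box proteins, receptor-like kinases and defence genes were called in both directions. The interval was compared in 6 of the 30 RNA-seq libraries of the series, 3 of BTSO at 90 DAS and 3 of BTSO at 60 DAS. The 30 libraries came from 2 varieties at 5 storage days. The other variety, ‘Tarocco’ blood orange (TBO), gave 3 libraries at 90 DAS and 3 at 60 DAS for comparison. All 30 libraries entered the expression filter and the estimate of each gene's spread, on which the p-values of the gene tests rest. BTSO is a low-acid sweet orange (Citrus sinensis), in which the study measured less anthocyanin than in TBO. TBO is a blood orange, which colours its pulp with anthocyanins. In both groups and both varieties the fruit were mature when obtained, packed one by one in polyethylene bags and kept in a cool humid chamber, and each juice sac sample pooled several fruit. The 2 groups of BTSO differed in the storage day alone as far as the labels say. No unstored fruit of the same age was among the samples, so the labels do not separate storage itself from the age of the fruit.

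Juice sacs are the fluid-filled vesicles that make up the edible pulp of a citrus fruit, and most of the volume of their cells is vacuole, where sugars and citrate are held. A picked orange no longer receives sucrose from the tree. Its cells go on respiring and use up sugars and acids in the vacuole, invertases split sucrose into glucose and fructose, and sucrose-phosphate synthase builds sucrose again. Orange is a non-climacteric fruit, which means that it ripens without a burst of ethylene, but its tissue still responds to ethylene. In a long storage the walls of the juice sac cells may soften or thicken, which involves pectin-cutting enzymes, expansins and lignin-forming enzymes.

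Library totals of the estimated counts ran from 55922797 to 68198074 in the 90 DAS libraries and from 64063824 to 65430143 in those of 60 DAS. An FPKM above 0 (fragments scaled to transcript length and library size) was listed for 19906 to 19969 genes at 90 DAS and 19706 to 19876 genes at 60 DAS. The 10 most abundant genes held 11.4% ± 0.743 of the summed FPKM at 90 DAS and 13.6% ± 1.52 at 60 DAS (SD, n = 3 each), and the libraries of the 2 days did not overlap in these values. An exact two-sided permutation test gave p = 0.1 for the gene numbers and for this share, which is the smallest p that 3 libraries against 3 can give. Pearson's r of log2(FPKM + 1) lay between 0.969 and 0.982 within a day and between 0.936 and 0.962 across the days, as a description over genes. The 90 DAS library of replicate 1 held the highest of the 3 values in 144 of the 268 genes that were higher at 90 DAS and the lowest in 125 of the 210 that were lower. The 60 DAS library of replicate 2 was the lowest of its 3 in 128 of the higher genes and the highest in 129 of the lower ones. Without 90 DAS replicate 1, 446 genes were called, 256 higher and 190 lower, and 352 of the 478 calls were kept. Without 60 DAS replicate 2, 452 were called, 265 higher and 187 lower, and 370 were kept. Summed markers of epidermis and wax were 147 ± 7.96 FPKM at 90 DAS and 177 ± 8.87 FPKM at 60 DAS without overlap, whereas those of green tissue, seed, peel oil gland and vascular tissue overlapped. The part of the epidermis and wax markers in the results was not tested. Of these marker lists, 4 of 14 oil gland genes, 1 of 10 vascular genes and 8 of 60 epidermis genes were listed at 0 in all 6 libraries. In pulp taken as a bulk sample, a loss of cells of one type cannot be told apart from less RNA per cell. A value after ± is the SD over the 3 libraries for an FPKM and the standard error of the fit for a log2 difference.

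Of 24179 genes in the deposited table, 16578 reached an FPKM of 1 in at least 3 of the 30 libraries and were tested with limma on log2(FPKM + 1). A gene was called when its Benjamini-Hochberg adjusted p was under 0.05 and its log2 difference, 90 DAS minus 60 DAS, was beyond 1 in either direction, which is a doubling on the scale of FPKM + 1. On that rule 478 genes were called, 2.88% of those tested, with 1.62% higher and 1.27% lower. With the adjusted p alone, 2347 genes (14.2%) were higher and 1885 (11.4%) lower. The median log2 difference over all genes tested was 0.02. All 3 libraries of 90 DAS lay beyond all 3 of 60 DAS in 222 of the 268 higher genes and in 199 of the 210 lower genes. Over all genes tested this was so for 18.4% in the upward and 16.3% in the downward direction. The called set was larger with other tools, with 448 higher and 402 lower by edgeR's quasi-likelihood test on the estimated counts and 495 and 432 by DESeq2, and smaller, with 157 and 156, when only the 6 libraries entered the limma fit.

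**Figure D1:**
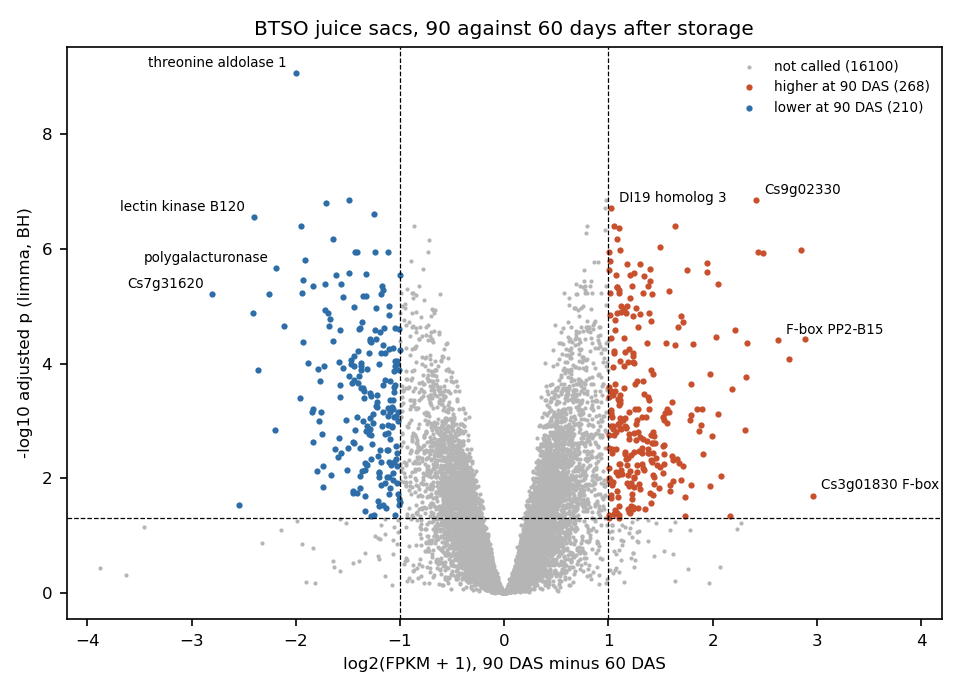
Each point is 1 of the 16578 genes tested, with the log2 difference (90 DAS minus 60 DAS, on log2(FPKM + 1)) on the x axis and −log10 of the limma adjusted p on the y axis. Orange points are the 268 genes called higher and blue points the 210 called lower at 90 DAS. Dashed lines are the limits of 1 and of an adjusted p of 0.05, and the lowest adjusted p belongs to the threonine aldolase gene Cs8g12640 on the left.

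The course over all 5 storage days is given as a description, since the values of 60 and 90 DAS chose these genes. Among the 268 genes higher at 90 DAS, the median of the gene means was 4.14, 3.41 and 2.55 FPKM at 0, 15 and 30 DAS, then 2.74 at 60 DAS and 9.33 at 90 DAS. Of them 232, or 86.6%, had their highest mean of the 5 days at 90 DAS, against 36.0% of all genes tested. Among the 210 genes lower at 90 DAS, the same median was 11 FPKM at 0 DAS and then 16.3, 25.9, 18.5 and 6.52 FPKM, with the highest mean at 30 DAS in 143 genes (68.1%, against 18.5% of all genes) and the lowest mean at 90 DAS in 144 (68.6%, against 18.4%). Over all genes tested the median was 6.70, 6.37, 6.88, 7.41 and 7.58 FPKM over the 5 days.

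The strongest rises included F-box genes, which tag proteins, and genes without a known product. Of the 15 with the largest log2 difference whose libraries did not overlap and whose mean reached 5 FPKM, 4 were assembled loci with no reference name and 4 were annotated only as hypothetical proteins. F-box proteins pick the proteins that a ubiquitin ligase complex marks for breakdown. The gene of F-box protein PP2-B15 (Cs6g14070) had 31.3, 18 and 15.3 FPKM at 90 DAS, against 4.22, 1.09 and 2.89 FPKM at 60 DAS (log2 difference 2.63 ± 0.39, adjusted p = 3.90e-05). Its lowest library at 90 DAS was above its highest at 60 DAS by a wide gap. The largest log2 difference, 2.96 ± 0.92 (SE), was that of Cs3g01830, annotated as F-box protein At3g54460, with 17.8, 11 and 10.3 FPKM at 90 DAS, against 0, 4.36 and 0 FPKM at 60 DAS. It was listed at 0 in 2 of the 3 libraries of 60 DAS, and edgeR and DESeq2 did not call it. The limma call was lost without 60 DAS replicate 1 (adjusted p = 0.0883), 60 DAS replicate 3 (adjusted p = 0.0736) or 90 DAS replicate 1 (adjusted p = 0.070). The adjusted p was 0.223 by edgeR and 0.397 by DESeq2. The adjacent gene Cs3g01820 carries the same annotation, so that reads may be shared between them, and had 52.4 ± 17.3 FPKM at 90 DAS and 23.7 ± 10.5 FPKM at 60 DAS (log2 difference 1.16 ± 0.27, adjusted p = 0.0035). Its call was lost without 60 DAS replicate 2 (log2 difference 0.82) or 90 DAS replicate 1 (log2 difference 0.91).

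Other strong rises fell on a signalling gene and on genes of the cell wall. Protein phosphatase inhibitor 2-like (Cs5g10500) belongs to proteins that hold back protein phosphatase 1 in other eukaryotes. It had 29.2, 15.1 and 14.8 FPKM at 90 DAS, against 2.79, 1.39 and 4.34 FPKM at 60 DAS (log2 difference 2.44 ± 0.26, adjusted p = 1.14e-06). The groups were separated, with 1 library of 90 DAS about as far above its 2 partners as these were above 60 DAS. Trichome birefringence-like 38 (Cs2g04980), from a family that adds acetyl groups to wall polymers in Arabidopsis, had 9.96 ± 4.1 FPKM at 90 DAS and 1.33 ± 0.645 FPKM at 60 DAS (log2 difference 2.21 ± 0.32, adjusted p = 2.65e-05). The epidermis-specific secreted glycoprotein EP1-like gene Cs5g12400 had 6.4 ± 1.82 FPKM at 90 DAS and 0.766 ± 0.301 FPKM at 60 DAS (log2 difference 2.05 ± 0.25, adjusted p = 4.08e-06). The libraries of both days were apart in these genes as well. Of the hypothetical proteins, Cs9g02330 was close to absent at 60 DAS, with 10.4, 5.17 and 2.86 FPKM at 90 DAS, against 0.242, 0.138 and 0.274 FPKM at 60 DAS (log2 difference 2.41 ± 0.21, adjusted p = 1.42e-07). Cs1g25570, which the deposited annotation places in the response to karrikin, had 11.9 ± 6.48 FPKM at 90 DAS and 1.18 ± 0.513 FPKM at 60 DAS (log2 difference 2.49 ± 0.27, adjusted p = 1.17e-06). Karrikins are smoke compounds that plants sense through the receptor KAI2. Of the assembled loci, which have neither a reference name nor a description in the table, MSTRG.5921 had 24.5 ± 2.31 FPKM at 90 DAS and 2.66 ± 1.24 FPKM at 60 DAS (log2 difference 2.85 ± 0.30, adjusted p = 1.06e-06). MSTRG.9432 had 14.7 ± 7.25 FPKM at 90 DAS and 1.06 ± 0.935 FPKM at 60 DAS (log2 difference 2.89 ± 0.42, adjusted p = 3.75e-05).

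The strongest falls included enzymes of amino acid, phenylpropanoid and wall metabolism and a channel. The smallest adjusted p of all genes tested was that of Cs8g12640, a probable low-specificity L-threonine aldolase 1, an enzyme that cleaves threonine to glycine and acetaldehyde. It had 66.9, 62.7 and 68.3 FPKM at 90 DAS, against 273, 282 and 248 FPKM at 60 DAS (log2 difference -2.00 ± 0.13, adjusted p = 8.65e-10), and its mean had been 94.1, 162 and 285 FPKM at 0, 15 and 30 DAS. Its 3 libraries were close together on both days and far from the other day. The largest fall by log2 difference was that of Cs7g31620, a hypothetical protein to which the table gives the enzyme number of L-ascorbate oxidase and a role in lignin formation. It had 0.997, 4.41 and 1.28 FPKM at 90 DAS, against 21.7, 23.3 and 14.2 FPKM at 60 DAS (log2 difference -2.81 ± 0.35, adjusted p = 6.12e-06). Cs6g11940, a hypothetical protein that carries the enzyme number of phenylalanine ammonia-lyase, the entry enzyme of phenylpropanoid synthesis, had 2.65, 11.6 and 7.89 FPKM at 90 DAS, against 31.1, 69 and 24 FPKM at 60 DAS (log2 difference -2.37 ± 0.39, adjusted p = 1.30e-04). The groups did not overlap in either gene.

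The G-type lectin receptor kinase B120 (Cs2g07100) had 1.91, 5.59 and 4.03 FPKM at 90 DAS, against 23.5, 27.7 and 19.4 FPKM at 60 DAS (log2 difference -2.41 ± 0.23, adjusted p = 2.84e-07). Two-pore potassium channel 1 (Cs2g28820), whose Arabidopsis counterpart releases potassium from the vacuole, had 2.3, 3.66 and 1.98 FPKM at 90 DAS, against 16.1, 17.5 and 14.7 FPKM at 60 DAS (log2 difference -2.25 ± 0.28, adjusted p = 6.14e-06). In both genes the 2 groups were far apart. Cs6g09940, which the table links to lipid transport, had 0.822, 1.8 and 1.51 FPKM at 90 DAS, against 2.43, 59.6 and 11.4 FPKM at 60 DAS. This fall rested on 1 library, since without 60 DAS replicate 2 the log2 difference was -1.48 with a limma adjusted p of 0.217, against -2.55 with it. It also lost its call without 60 DAS replicate 3 (adjusted p = 0.0504), 90 DAS replicate 1 (adjusted p = 0.0872) or 90 DAS replicate 3 (adjusted p = 0.0566). Cs7g32220, a hypothetical protein with the annotation of a flavonoid glucosyltransferase, had 7.14 ± 0.900 FPKM at 90 DAS and 34.1 ± 2.59 FPKM at 60 DAS (log2 difference -2.11 ± 0.29, adjusted p = 2.18e-05). The called gene with the highest mean at 60 DAS was Cs5g27060, annotated as protein SRC1-like, a kind of protein known in soybean as cold-induced. It had 2981, 6332 and 5219.8 FPKM at 90 DAS, against 14407, 15677 and 9326 FPKM at 60 DAS (log2 difference -1.47 ± 0.24, adjusted p = 1.01e-04). The groups did not overlap, but its call was lost with quantile normalization (log2 difference -0.86), without a filter and in the fit on 6 libraries. Cyclic nucleotide-gated ion channel 2 (Cs6g21850), a calcium channel in Arabidopsis, had 202 ± 24 FPKM at 90 DAS and 488 ± 144 FPKM at 60 DAS (log2 difference -1.24 ± 0.18, adjusted p = 2.58e-05).

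**Figure D2:**
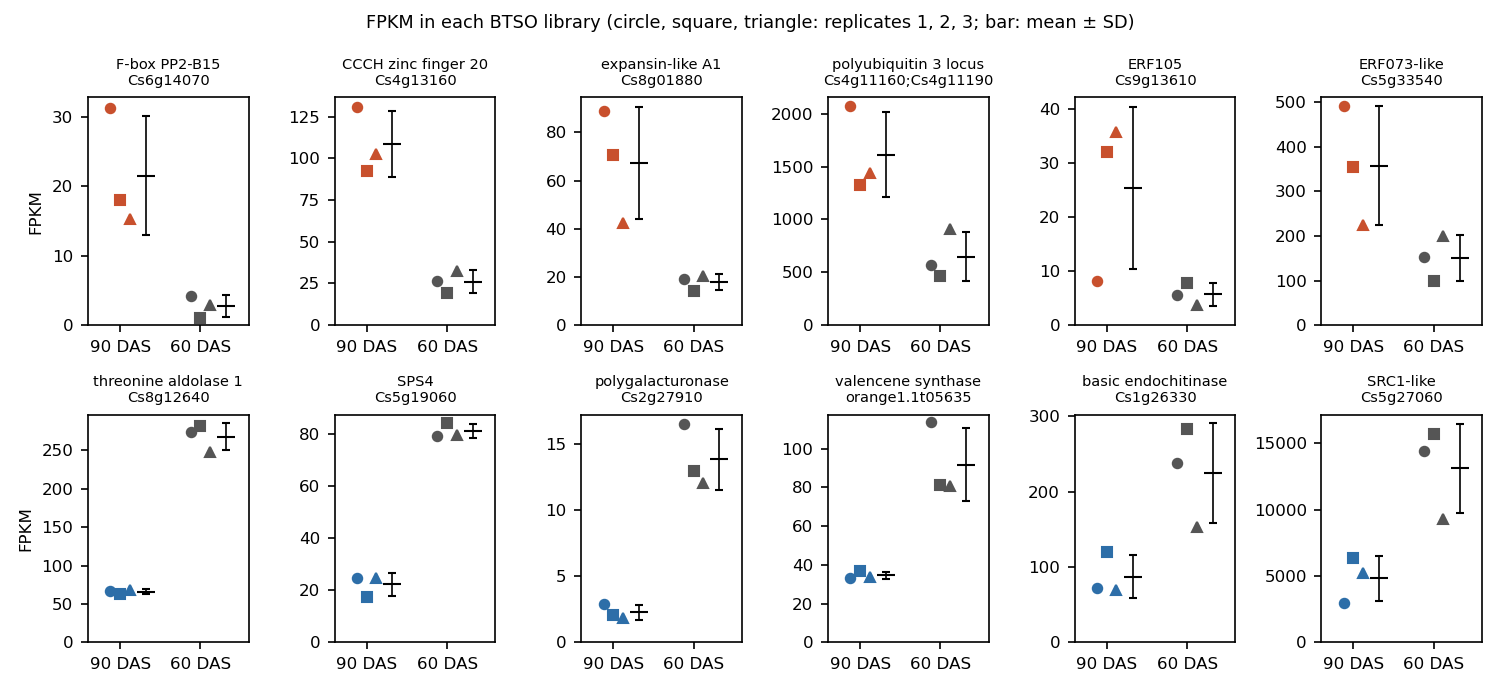
FPKM of 12 called genes in each BTSO library, with 90 DAS on the left and 60 DAS on the right of each panel, the replicates as circle, square and triangle and the mean ± SD as a bar (n = 3). The upper row shows genes higher at 90 DAS and the lower row genes lower at 90 DAS, and in ERF105 the circle, replicate 1, is close to the libraries of 60 DAS.

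Genes of sucrose, starch and trehalose metabolism were called in both directions. Of 44 genes tested in the list of sucrose, starch and trehalose metabolism, 2 were called higher and 5 lower, with a median log2 difference of 0.03 against 0.02 over all genes. This count and those of the later lists stand beside 1.62% called higher and 1.27% called lower over all genes tested. Sucrose-phosphate synthase 4 (Cs5g19060), from the family of enzymes that commit hexose phosphates to sucrose, had 24.7, 17.3 and 24.7 FPKM at 90 DAS, against 79.3, 84 and 79.3 FPKM at 60 DAS (log2 difference -1.83 ± 0.22, adjusted p = 4.40e-06). The lowest library of 60 DAS was above 3 times the highest of 90 DAS. Alkaline/neutral invertase A (Cs9g01760), which splits sucrose in the mitochondrion, had 8.36, 9.56 and 8.78 FPKM at 90 DAS, against 21.4, 21.5 and 18.4 FPKM at 60 DAS (log2 difference -1.11 ± 0.12, adjusted p = 1.14e-06). The acid invertase gene Cs5g09220, of the kind that splits sucrose in the vacuole or the wall, had 31.6, 75.9 and 101 FPKM at 90 DAS, against 139, 261 and 123 FPKM at 60 DAS (log2 difference -1.38 ± 0.41, adjusted p = 0.015). The soluble acid invertase Cs9g14590 had 1.7 ± 0.55 FPKM at 90 DAS and 4.89 ± 1.88 FPKM at 60 DAS (log2 difference -1.10 ± 0.30, adjusted p = 0.00941). The groups did not overlap in these invertases. The call of Cs5g09220 was lost without 60 DAS replicate 2 (adjusted p = 0.0926) or 90 DAS replicate 1 (log2 difference -0.90). That of Cs9g14590 was lost without 60 DAS replicate 3 (log2 difference -0.86) or 90 DAS replicate 3 (log2 difference -0.92). Beta-amylase 1 (orange1.1t03470), a plastid enzyme that releases maltose from starch, had 62.3, 103 and 112 FPKM at 90 DAS, against 201, 264 and 156 FPKM at 60 DAS (log2 difference -1.16 ± 0.20, adjusted p = 2.37e-04). It lost its call without 60 DAS replicate 2 (log2 difference -0.97) or 90 DAS replicate 1 (log2 difference -0.90).

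Both called genes on the higher side of that list were trehalose-phosphate phosphatases, which remove the phosphate from trehalose 6-phosphate, a sugar signal of plants. TPP C (Cs9g18290, chromosome 9, 17463855 to 17466432 on the minus strand in the table's own coordinates, whose build is not settled) had 2.59, 1.6 and 1.48 FPKM at 90 DAS, against 0.191, 0.0948 and 0.365 FPKM at 60 DAS (log2 difference 1.23 ± 0.19, adjusted p = 6.54e-05). TPP J (Cs1g01330) had 5.41, 3.63 and 3.53 FPKM at 90 DAS, against 1.09, 0.726 and 1.65 FPKM at 60 DAS (log2 difference 1.27 ± 0.22, adjusted p = 2.02e-04). Both were weakly expressed and both were separated between the days. Of 14 sugar transporters tested, none was called higher and 2 lower, both of the SWEET family, which lets sugars pass through membranes in either direction, with a median of -0.24. SWEET1 (Cs3g20720) had 2.03, 2.77 and 1.94 FPKM at 90 DAS, against 8.31, 8.32 and 5.42 FPKM at 60 DAS (log2 difference -1.35 ± 0.17, adjusted p = 6.67e-06). SWEET2 (Cs5g13290), a vacuolar carrier in Arabidopsis, had 2.53, 2.17 and 2.21 FPKM at 90 DAS, against 5.85, 6.3 and 10.2 FPKM at 60 DAS (log2 difference -1.32 ± 0.27, adjusted p = 0.00124). The raffinose-forming enzyme galactinol-sucrose galactosyltransferase 1 (Cs4g07840) had 13.5 ± 5.28 FPKM at 90 DAS and 37.9 ± 12.1 FPKM at 60 DAS (log2 difference -1.45 ± 0.33, adjusted p = 0.00231). Its call was lost in the fit on 6 libraries (limma adjusted p = 0.0529). Of the 41 genes of glycolysis and fermentation none was called except the enolase-phosphatase E1 gene Cs5g16220, an enzyme of methionine salvage that the word enolase brought into the list. It had 12.3 ± 5.04 FPKM at 90 DAS and 26.5 ± 7.04 FPKM at 60 DAS (log2 difference -1.09 ± 0.32, adjusted p = 0.0145) and lost its call without 60 DAS replicate 1 (log2 difference -0.98), 60 DAS replicate 3 (log2 difference -0.97) or 90 DAS replicate 1 (log2 difference -0.76).

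**Figure D3:**
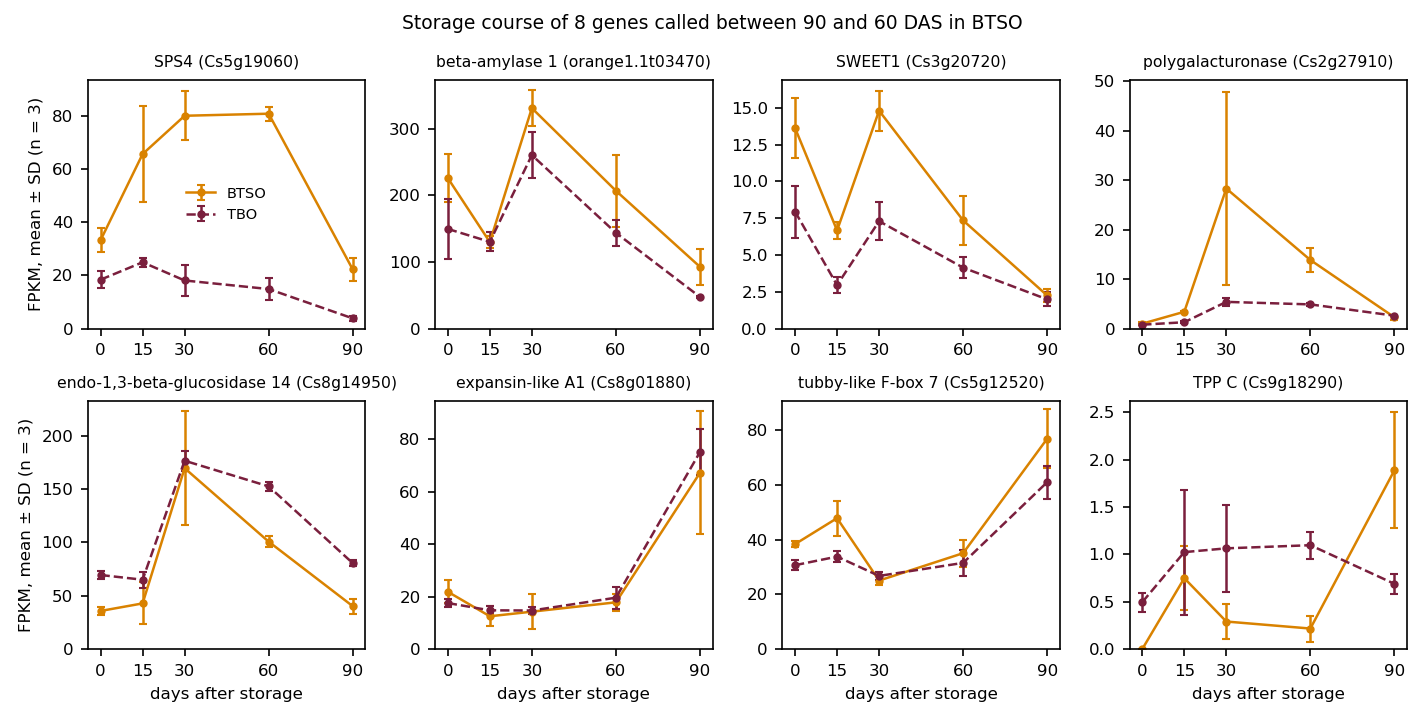
Mean FPKM ± SD (n = 3) of 8 genes over the 5 storage days, 0 to 90 DAS, in BTSO (solid) and TBO (dashed). In BTSO, SPS4 stayed near 80 FPKM at 30 and 60 DAS and was at 22.2 at 90 DAS, expansin-like A1 and tubby-like F-box 7 were highest at 90 DAS, and TPP C was at 1.89 in BTSO and 0.689 in TBO at 90 DAS.

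Genes that act on the cell wall moved in both directions. Of 44 genes of pectin modification, 3 were higher and 1 lower, with a median of 0.08. Polygalacturonase At1g48100-like (Cs2g27910), an enzyme that cuts the pectin backbone, had 2.9, 2.05 and 1.86 FPKM at 90 DAS, against 16.5, 13 and 12.1 FPKM at 60 DAS (log2 difference -2.19 ± 0.25, adjusted p = 2.19e-06). The 3 genes on the higher side were pectinesterases, which take methyl groups off pectin. Of these, orange1.1t02719 had 7.43 ± 0.347 FPKM at 90 DAS and 2.99 ± 0.553 FPKM at 60 DAS (log2 difference 1.09 ± 0.11, adjusted p = 6.86e-07). The stronger expressed Cs8g16900 had 72.8, 54.1 and 39.3 FPKM at 90 DAS, against 28.6, 6.07 and 27.6 FPKM at 60 DAS (log2 difference 1.59 ± 0.48, adjusted p = 0.0168). The 3 libraries of 90 DAS lay above those of 60 DAS in both. The call of Cs8g16900 was lost without 60 DAS replicate 2 (log2 difference 0.91) or 90 DAS replicate 1 (adjusted p = 0.0754), by edgeR and by DESeq2. That of orange1.1t02719 was lost without 60 DAS replicate 1 (log2 difference 0.99).

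Of 67 genes of cellulose, xyloglucan and expansin, 3 were higher and 4 lower, with a median of 0.06. Expansin-like A1 (Cs8g01880), a relative of the expansins that loosen walls, had 88.9, 70.4 and 42.4 FPKM at 90 DAS, against 19.1, 14.1 and 20.3 FPKM at 60 DAS (log2 difference 1.81 ± 0.27, adjusted p = 4.61e-05). Expansin-A4 (Cs6g06530) went the other way, with 8.46, 16.4 and 17.3 FPKM at 90 DAS, against 42, 76.4 and 25.3 FPKM at 60 DAS (log2 difference -1.62 ± 0.38, adjusted p = 0.00309). No library of one day reached into the other in either gene. Expansin-A4 lost its call in the fit on 6 libraries (limma adjusted p = 0.0641). The xyloglucan endotransglucosylase/hydrolases, which cut and rejoin xyloglucan chains, were also split. XTH31-like (Cs8g15720) had 4.64 ± 3.39 FPKM at 90 DAS and 0.325 ± 0.246 FPKM at 60 DAS (log2 difference 1.94 ± 0.22, adjusted p = 2.50e-06), and it was not called by DESeq2. XTH10 (Cs8g03550) had 7.33 ± 1.21 FPKM at 90 DAS and 23.2 ± 10.7 FPKM at 60 DAS (log2 difference -1.45 ± 0.23, adjusted p = 1.12e-04). The beta-xylosidase orange1.1t02681 was close to 0 at 90 DAS, with 0.0317, 0.0865 and 0.0422 FPKM at 90 DAS, against 1.16, 2.13 and 1.06 FPKM at 60 DAS (log2 difference -1.19 ± 0.17, adjusted p = 2.86e-05). Fasciclin-like arabinogalactan protein 15 (Cs8g14210) was called higher (log2 difference 1.00 ± 0.36, adjusted p = 0.044). The call was lost in most of the alternatives, among them without 60 DAS replicate 1 (log2 difference 0.85), 60 DAS replicate 2 (log2 difference 0.81), 90 DAS replicate 1 (log2 difference 0.70) or 90 DAS replicate 3 (adjusted p = 0.0504).

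Of 47 genes of phenylpropanoid and lignin synthesis, 1 was higher and 2 lower, with a median of 0.04. In the wider phenylpropanoid pathway of the deposited annotation, 2 of 193 genes tested were higher and 7 lower (4.66%, against 2.88% of all genes), with a median of -0.04. The list was drawn up by description and holds neither Cs6g11940 nor Cs7g31620, described above. Laccase-7-like (Cs6g07400), a copper enzyme that couples lignin precursors, had 10.8, 12.2 and 12.5 FPKM at 90 DAS, against 30.8, 47.1 and 61.4 FPKM at 60 DAS (log2 difference -1.84 ± 0.41, adjusted p = 0.00233), with the groups apart. The caffeic acid 3-O-methyltransferase-like gene Cs5g16860 had 1.51 ± 0.143 FPKM at 90 DAS and 5.91 ± 0.984 FPKM at 60 DAS (log2 difference -1.45 ± 0.43, adjusted p = 0.0165), and its mean had been 28.7 FPKM at 30 DAS. Its call was lost without 60 DAS replicate 1 (adjusted p = 0.0521) or 60 DAS replicate 2 (adjusted p = 0.0506). The 4-coumarate-CoA ligase-like gene Cs7g21790 was called higher, with 10.2 ± 3.57 FPKM at 90 DAS and 3.79 ± 2.19 FPKM at 60 DAS (log2 difference 1.29 ± 0.30, adjusted p = 0.00329). It lost the call without 60 DAS replicate 2 (log2 difference 0.88).

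Of 21 terpene synthesis genes, none was higher and 3 were lower, with a median of -0.34. Terpene synthases make the hydrocarbons of citrus aroma. Valencene synthase (orange1.1t05635), which makes the sesquiterpene valencene of ripe orange, had 33.3, 36.7 and 33.9 FPKM at 90 DAS, against 114, 81.1 and 80.8 FPKM at 60 DAS (log2 difference -1.36 ± 0.19, adjusted p = 1.91e-05). The locus Cs5g12880;Cs5g12900;Cs5g12890, which spans 3 reference genes annotated as germacrene D, beta-farnesene and valencene synthases, had 164, 183 and 195 FPKM at 90 DAS, against 431, 464 and 320.1 FPKM at 60 DAS (log2 difference -1.15 ± 0.20, adjusted p = 1.97e-04). The groups were separated in both, and near-identical synthases may share reads. The limonene synthase gene orange1.1t05179 had 1.08, 0 and 0 FPKM at 90 DAS, against 2.13, 1.38 and 2.01 FPKM at 60 DAS and was listed at 0 in 2 libraries of 90 DAS. Its call was lost without 90 DAS replicate 2 (log2 difference -0.97) or 90 DAS replicate 3 (log2 difference -0.97) and was not made by edgeR or DESeq2. It also belongs to the peel oil gland markers, whose summed level was 18.8 ± 7.74 FPKM at 90 DAS and 27.5 ± 6.55 FPKM at 60 DAS with overlapping libraries, and the part of peel tissue in this fall was not tested.

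Of 202 defence and pathogenesis-related genes, 2 were higher and 7 lower, and the median was 0.17. With the adjusted p alone, however, 56 were higher and 13 lower, against 14.2% higher and 11.4% lower over all genes tested. The called falls included abundant antifungal proteins. Basic endochitinase (Cs1g26330), which degrades fungal chitin, had 72.8, 119.9 and 69.6 FPKM at 90 DAS, against 239, 283 and 153 FPKM at 60 DAS (log2 difference -1.35 ± 0.24, adjusted p = 2.62e-04). The basic glucan endo-1,3-beta-glucosidase orange1.1t00634, which degrades fungal glucan, had 226, 205 and 159.9 FPKM at 90 DAS, against 361, 638 and 516 FPKM at 60 DAS (log2 difference -1.33 ± 0.34, adjusted p = 0.00564). Glucan endo-1,3-beta-glucosidase 14 (Cs8g14950) had 48.3, 35.2 and 37.2 FPKM at 90 DAS, against 97.3, 97.8 and 107 FPKM at 60 DAS (log2 difference -1.31 ± 0.22, adjusted p = 1.22e-04). All libraries of 90 DAS were below all of 60 DAS in the 3 genes.

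The largest called fall of the list was that of thaumatin-like protein 1b (Cs1g25530), from a family of small secreted proteins of fungal defence, which was less abundant than those above. It had 0.903, 2.3 and 2.42 FPKM at 90 DAS, against 13.2, 20.8 and 9.43 FPKM at 60 DAS (log2 difference -2.41 ± 0.32, adjusted p = 1.31e-05), without overlap. In the thaumatin-like protein gene Cs5g10550 the means were 67.3 ± 37.7 FPKM at 90 DAS and 152 ± 49.4 FPKM at 60 DAS (log2 difference -1.27 ± 0.31, adjusted p = 0.00467). This call was lost without 90 DAS replicate 1 (log2 difference -0.84). On the higher side, the glucan endo-1,3-beta-glucosidase 7-like gene Cs4g08530 had 33, 11.8 and 9.37 FPKM at 90 DAS, against 2.86, 1.24 and 3.2 FPKM at 60 DAS (log2 difference 2.32 ± 0.39, adjusted p = 1.71e-04). PTI5 (Cs2g05280), a transcription factor that activates pathogenesis-related genes in tomato, had 7.54, 8.49 and 10.3 FPKM at 90 DAS, against 2.93, 2.32 and 2.63 FPKM at 60 DAS (log2 difference 1.43 ± 0.39, adjusted p = 0.00884). DESeq2 did not call Cs4g08530 (adjusted p = 0.0706). Outside the list, 3 genes of the same region of chromosome 1 annotated as salicylic acid-binding protein 2-like, an esterase that frees salicylic acid from its methyl ester in tobacco, were all lower. Cs1g23170 had 26.4, 20.3 and 22.1 FPKM at 90 DAS, against 66.9, 49.8 and 87.4 FPKM at 60 DAS (log2 difference -1.50 ± 0.35, adjusted p = 0.00302), after a mean of 281 FPKM at 30 DAS. Cs1g23160 had 11.3 ± 1.43 FPKM at 90 DAS and 31.3 ± 8.58 FPKM at 60 DAS, after 141 FPKM at 30 DAS. Cs1g23200 had 24.8 ± 3.79 FPKM at 90 DAS and 65.9 ± 23.9 FPKM at 60 DAS, after 289 FPKM at 30 DAS. Such copies may share reads, so that they are not 3 independent results.

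Ethylene response factors, which act at the end of the ethylene signal, were called in both directions. Of 41 ethylene genes tested, 3 were higher and 2 lower, with a median of 0.17. ERF105 (Cs9g13610) had 8.16, 32 and 35.7 FPKM at 90 DAS, against 5.61, 7.85 and 3.65 FPKM at 60 DAS (log2 difference 1.78 ± 0.36, adjusted p = 9.70e-04). The value of replicate 1 at 90 DAS was just above the highest of 60 DAS, whereas the other 2 were several times higher. ERF4 (Cs2g05620), a repressor in Arabidopsis, had 2.23, 7.22 and 8.05 FPKM at 90 DAS, against 0.623, 1.82 and 0.618 FPKM at 60 DAS (log2 difference 1.67 ± 0.42, adjusted p = 0.00543) with the same order of libraries. ERF073-like (Cs5g33540) was the most abundant of them and is related to factors that act under low oxygen in Arabidopsis. It had 491, 355 and 224 FPKM at 90 DAS, against 153, 98.9 and 201 FPKM at 60 DAS (log2 difference 1.22 ± 0.38, adjusted p = 0.0188), with replicate 1 on top. This call was lost without 60 DAS replicate 2 (log2 difference 0.95), 90 DAS replicate 1 (log2 difference 0.96) or 90 DAS replicate 2 (adjusted p = 0.0503). On the lower side ERF003 (Cs7g06120) had 6.29, 13.6 and 15.4 FPKM at 90 DAS, against 49.3, 63.5 and 30.8 FPKM at 60 DAS (log2 difference -1.96 ± 0.36, adjusted p = 3.92e-04). ERF061 (Cs5g02340) had 7.74, 21.1 and 22.6 FPKM at 90 DAS, against 36.9, 47.4 and 21.1 FPKM at 60 DAS (log2 difference -1.05 ± 0.38, adjusted p = 0.0443). ERF061 lost its call without 60 DAS replicate 1 (log2 difference -0.98), 60 DAS replicate 2 (log2 difference -0.80) or 90 DAS replicate 1 (log2 difference -0.59) and by edgeR (adjusted p = 0.0533). In the fit on 6 libraries the calls of ERF105 (limma adjusted p = 0.0904), ERF4 (0.0607), ERF073-like (0.0791) and ERF061 (0.178) were lost. Only that of ERF003 was kept there.

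Among the other hormone lists, all 3 called auxin genes of 38 were higher, with a median of 0.09. SAUR15 (Cs5g09290), an early auxin response gene, had 10.2, 11.2 and 8.03 FPKM at 90 DAS, against 3.75, 3.7 and 3.81 FPKM at 60 DAS (log2 difference 1.17 ± 0.13, adjusted p = 1.81e-06). The repressor IAA27-like (Cs1g15390) had 4.35 ± 0.497 FPKM at 90 DAS and 1.27 ± 0.409 FPKM at 60 DAS (log2 difference 1.25 ± 0.20, adjusted p = 9.72e-05). Auxin-induced protein 6B (Cs3g01940) had 7.4 ± 0.894 FPKM at 90 DAS and 2.07 ± 0.148 FPKM at 60 DAS (log2 difference 1.45 ± 0.33, adjusted p = 0.00239). The last was not called with a pseudocount of 0.1 or by edgeR. Of 27 abscisic acid and carotenoid genes, the only call was abscisic acid 8'-hydroxylase 3-like (Cs3g23530), which inactivates abscisic acid. It had 4.78, 3.96 and 2.51 FPKM at 90 DAS, against 1.71, 0.639 and 0.998 FPKM at 60 DAS (log2 difference 1.17 ± 0.29, adjusted p = 0.00466), and the log2 difference was 0.9995 without 60 DAS replicate 2. None of 17 jasmonate genes was called. KAI2 (Cs1g22020), a receptor of karrikins in Arabidopsis, had 49.9 ± 9.2 FPKM at 90 DAS and 126 ± 42.1 FPKM at 60 DAS (log2 difference -1.28 ± 0.19, adjusted p = 3.78e-05).

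Calls among other transcription factors are given by family. NAC factors, a plant family with members that act in senescence, had 2 of 28 called higher and none lower. With the adjusted p alone 13 of them were higher and 2 lower, against 14.2% and 11.4% of all genes tested. Their median was 0.47 against 0.02 over all genes. NAC62-like (Cs7g22420;Cs7g22430) had 9.33, 21.4 and 21.2 FPKM at 90 DAS, against 4.56, 5.45 and 4.54 FPKM at 60 DAS (log2 difference 1.56 ± 0.30, adjusted p = 6.15e-04). NAC60-like (Cs1g09660, chromosome 1, 11250690 to 11252786 on the plus strand) had 4.6, 7.99 and 8.02 FPKM at 90 DAS, against 2.45, 2.7 and 2.2 FPKM at 60 DAS (log2 difference 1.16 ± 0.18, adjusted p = 6.24e-05). The libraries of the 2 days were apart in both, and replicate 1 was again the lowest of 90 DAS. Of 179 zinc finger and other factors, 2 were higher and 1 lower (median 0.13). Zinc finger CCCH domain-containing protein 20 (Cs4g13160), whose Arabidopsis relatives bind and degrade RNA, had 131, 92.7 and 102 FPKM at 90 DAS, against 26.4, 19.1 and 32.7 FPKM at 60 DAS (log2 difference 2.04 ± 0.30, adjusted p = 3.47e-05). The TCP19-like gene Cs5g10130 had 4.61 ± 0.611 FPKM at 90 DAS and 10.3 ± 1.3 FPKM at 60 DAS (log2 difference -1.01 ± 0.14, adjusted p = 2.48e-05). It lost its call without 60 DAS replicate 2 (log2 difference -0.92) or 90 DAS replicate 1 (log2 difference -0.92). Of 36 MYB and 18 bHLH genes 1 each was lower. Myb4 (Cs9g02640), a repressor of phenylpropanoid genes in Arabidopsis, had 8.85 ± 2.62 FPKM at 90 DAS and 23.7 ± 5.11 FPKM at 60 DAS (log2 difference -1.34 ± 0.25, adjusted p = 3.99e-04). The bHLH83-like gene Cs6g17670 had 0.700 ± 0.529 FPKM at 90 DAS and 3.21 ± 1.55 FPKM at 60 DAS (log2 difference -1.29 ± 0.28, adjusted p = 0.0017). Its call was lost in the fit on 6 libraries (limma adjusted p = 0.0548). None of 15 WRKY genes was called.

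The longest list, 325 genes of proteasome, ubiquitin and autophagy, had 12 genes higher and 4 lower, with a median of 0.05. By the adjusted p alone 67 were higher and 31 lower, against 14.2% and 11.4% of all genes tested. The ubiquitin mediated proteolysis pathway of the deposited annotation had 1 of 193 genes tested higher, the hypothetical protein Cs8g20120, and none lower (0.518%, against 2.88% of all genes), with a median of -0.01. That call was lost without 60 DAS replicate 2 (log2 difference 0.75) or 90 DAS replicate 1 (log2 difference 0.83). The polyubiquitin 3 locus (Cs4g11160;Cs4g11190), which encodes ubiquitin itself in tandem, had 2071, 1328 and 1439 FPKM at 90 DAS, against 568, 468 and 907 FPKM at 60 DAS (log2 difference 1.34 ± 0.24, adjusted p = 3.44e-04). Tubby-like F-box protein 7 (Cs5g12520) had 83, 64.5 and 83.2 FPKM at 90 DAS, against 33.1, 31.5 and 40.6 FPKM at 60 DAS (log2 difference 1.11 ± 0.12, adjusted p = 1.07e-06). The F-box/kelch-repeat protein At1g15670-like (Cs1g14060), whose Arabidopsis relatives turn over phenylalanine ammonia-lyase, had 47.3, 41.3 and 33.1 FPKM at 90 DAS, against 15.8, 15.4 and 14.6 FPKM at 60 DAS (log2 difference 1.34 ± 0.16, adjusted p = 2.95e-06). In each of the 3 genes all libraries of 90 DAS were above those of 60 DAS. U-box protein 4 (Cs2g02070) had 9.51 ± 1.1 FPKM at 90 DAS and 3.89 ± 0.356 FPKM at 60 DAS (log2 difference 1.1 ± 0.11, adjusted p = 4.34e-07). On the lower side, the ubiquitin ligase TRAF7 gene Cs7g08000 had 0.577 ± 0.146 FPKM at 90 DAS and 2.95 ± 0.894 FPKM at 60 DAS (log2 difference -1.30 ± 0.20, adjusted p = 6.54e-05). U-box protein 33-like (Cs5g06030, chromosome 5, 3747526 to 3749033 on the minus strand) had 0.544 ± 0.366 FPKM at 90 DAS and 3.7 ± 1.47 FPKM at 60 DAS (log2 difference -1.59 ± 0.25, adjusted p = 9.45e-05).

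Of 83 heat shock proteins and chaperones, which refold damaged proteins, 4 were higher and 1 lower, with a median of 0.12. By the adjusted p alone 24 were higher and 4 lower, against 14.2% and 11.4% of all genes tested. The 22.0 kDa heat shock protein (Cs5g18500) had 133, 268 and 194 FPKM at 90 DAS, against 106, 95.9 and 77.4 FPKM at 60 DAS (log2 difference 1.04 ± 0.19, adjusted p = 3.22e-04). Its call was lost without 60 DAS replicate 3 (log2 difference 0.91) or 90 DAS replicate 2 (log2 difference 0.79). The dnaJ homolog B13-like gene Cs2g26590, a co-chaperone, had 1.94, 4.1 and 8.4 FPKM at 90 DAS, against 0.248, 0.191 and 0 FPKM at 60 DAS (log2 difference 2.19 ± 0.39, adjusted p = 2.81e-04). It was listed at 0 in 1 library of 60 DAS. The chloroplast small heat shock protein gene Cs7g10040 was lower, with 0.862 ± 0.511 FPKM at 90 DAS and 3.06 ± 1.51 FPKM at 60 DAS (log2 difference -1.10 ± 0.28, adjusted p = 0.00521). It lost its call without 60 DAS replicate 1 (log2 difference -0.83) or 90 DAS replicate 1 (log2 difference -0.85).

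Of 193 kinases and calcium signalling genes, 7 were higher and 2 lower (median 0.03). Among the higher ones were 2 receptor kinase genes annotated as HAIKU2, named after a regulator of seed size in Arabidopsis. The first (orange1.1t01652) had 9.99, 7.28 and 7.97 FPKM at 90 DAS, against 2.94, 2.98 and 4.02 FPKM at 60 DAS (log2 difference 1.12 ± 0.15, adjusted p = 1.01e-05). The other (Cs3g16610) had 11 ± 2.16 FPKM at 90 DAS and 4.76 ± 0.92 FPKM at 60 DAS (log2 difference 1.05 ± 0.16, adjusted p = 6.54e-05) and lost its call without 60 DAS replicate 1 (log2 difference 0.91) or 90 DAS replicate 1 (log2 difference 0.91). Calmodulin-binding protein 25-like (Cs6g16350) had 3.89, 16 and 17.9 FPKM at 90 DAS, against 1.36, 3.19 and 1.22 FPKM at 60 DAS (log2 difference 2.05 ± 0.40, adjusted p = 7.46e-04), again with replicate 1 far below its 2 partners. This call was lost in the fit on 6 libraries (limma adjusted p = 0.0642). The receptor-like kinase At3g47110 gene Cs2g28800, a near neighbour of the two-pore channel gene Cs2g28820 in the reference numbering, fell as well. It had 7.77, 16.7 and 8.95 FPKM at 90 DAS, against 38, 57.2 and 24.8 FPKM at 60 DAS (log2 difference -1.75 ± 0.38, adjusted p = 0.00171). DEHYDRATION-INDUCED 19 homolog 3 (Cs3g14880), a zinc finger protein of drought response in Arabidopsis, had a small adjusted p at a difference just past the limit. Its values were 147, 115 and 141 FPKM at 90 DAS, against 63.7, 59.3 and 72.8 FPKM at 60 DAS (log2 difference 1.03 ± 0.09, adjusted p = 1.98e-07). It fell short of the limit of 1 with quantile normalization (log2 difference 0.99) and without 60 DAS replicate 2 (log2 difference 0.96), 90 DAS replicate 1 (log2 difference 0.96) or 90 DAS replicate 3 (log2 difference 0.99).

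**Figure D4:**
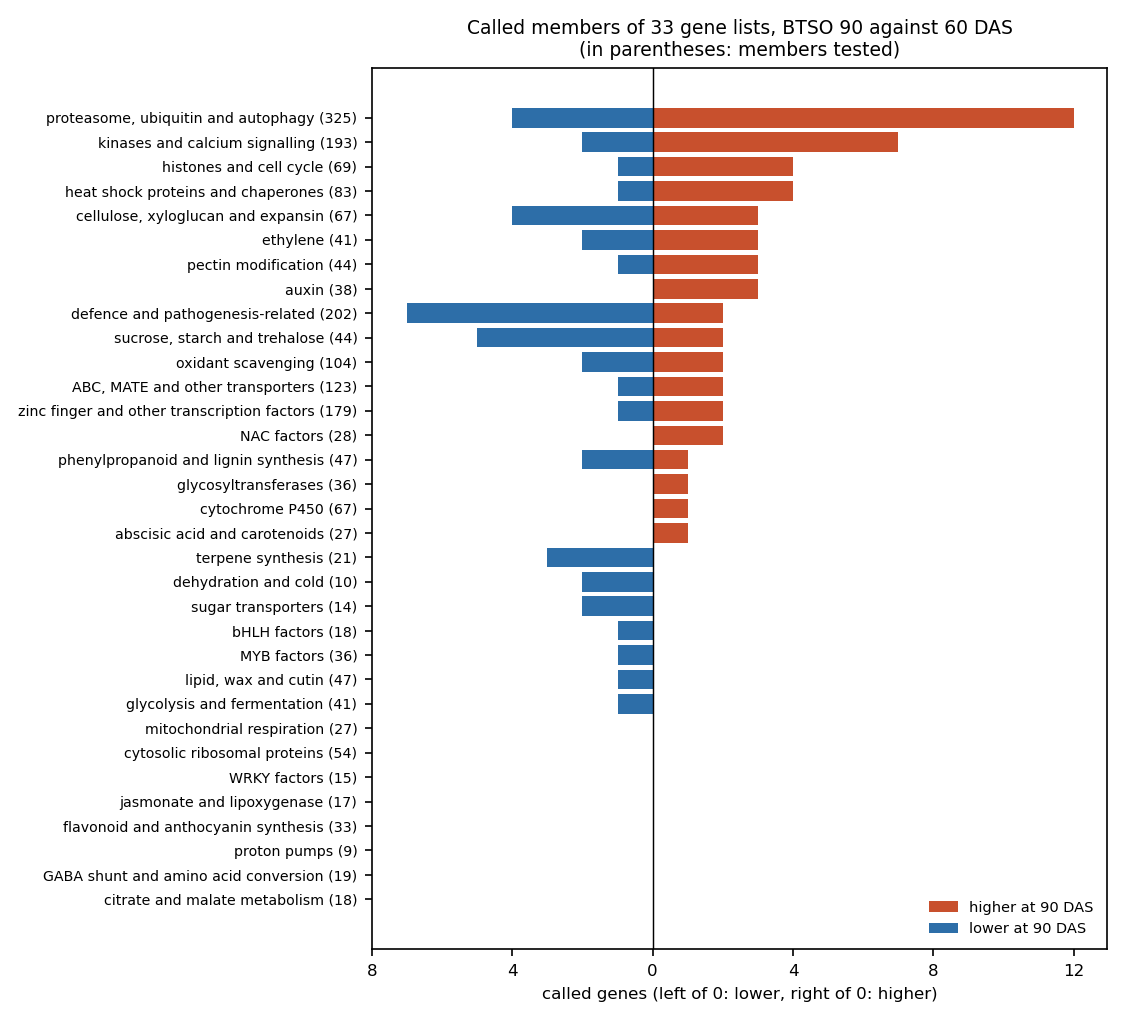
Number of called genes in each of 33 lists, with genes higher at 90 DAS to the right of 0, genes lower at 90 DAS to the left and the number of members tested in parentheses. The ubiquitin list holds 12 higher and 4 lower genes, the defence list 2 and 7, the sucrose list 2 and 5, and 8 lists hold none. Over all genes tested 1.62% were called higher and 1.27% lower.

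The calls in the remaining lists stand beside 2.88% of all genes tested that were called. Of 69 histone and cell cycle genes, 4 were higher and 1 lower. Histone H1-like (orange1.1t00054) had 27.5 ± 2.11 FPKM at 90 DAS and 11.7 ± 1.04 FPKM at 60 DAS (log2 difference 1.17 ± 0.24, adjusted p = 0.0013). A histone H3 gene (orange1.1t03169) had 8.76 ± 1.05 FPKM at 90 DAS and 3.2 ± 0.694 FPKM at 60 DAS (log2 difference 1.22 ± 0.15, adjusted p = 4.44e-06). Tubulin beta-5 (Cs6g16900) had 8.74 ± 1.81 FPKM at 90 DAS and 2.02 ± 0.856 FPKM at 60 DAS (log2 difference 1.71 ± 0.24, adjusted p = 1.87e-05). Of 104 oxidant scavenging genes, 2 were higher and 2 lower. The L-ascorbate oxidase homolog Cs8g01960 had 5.32 ± 0.834 FPKM at 90 DAS and 19.4 ± 2.11 FPKM at 60 DAS (log2 difference -1.69 ± 0.23, adjusted p = 1.31e-05). Peroxidase 42 (Cs2g03110) had 23.1 ± 4.54 FPKM at 90 DAS and 10.2 ± 1.28 FPKM at 60 DAS (log2 difference 1.09 ± 0.20, adjusted p = 4.10e-04) and fell short of the limit without 90 DAS replicate 3 (log2 difference 0.98). Both called genes of 10 in the dehydration list were late embryogenesis abundant proteins, which protect cells from drying, and both were lower. Cs8g07520 had 1.46 ± 0.221 FPKM at 90 DAS and 4.7 ± 0.0608 FPKM at 60 DAS (log2 difference -1.22 ± 0.22, adjusted p = 3.54e-04) and orange1.1t02242 had 11.6 ± 4.3 FPKM at 90 DAS and 28 ± 1.73 FPKM at 60 DAS (log2 difference -1.26 ± 0.26, adjusted p = 0.00107). Of 123 ABC, MATE and other transporters 2 were higher and 1, the two-pore channel, was lower. Of 67 cytochrome P450 genes and of 36 glycosyltransferases 1 each was higher, and of 47 lipid, wax and cutin genes 1 was lower. The epidermis and wax markers, none of whose 20 tested members was called, had the lower sum at 90 DAS given above. The glycosyltransferase call was a locus joined with a splicing factor gene (Cs7g25890;Cs7g25880; log2 difference 2.17 ± 0.79, adjusted p = 0.0452). It was lost by edgeR, by DESeq2 and without 60 DAS replicate 1 (adjusted p = 0.161), 60 DAS replicate 2 (adjusted p = 0.187), 90 DAS replicate 1 (adjusted p = 0.126), 90 DAS replicate 2 (adjusted p = 0.0804) or 90 DAS replicate 3 (adjusted p = 0.0708).

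Of the 13 genes of citrate, anthocyanin and their regulation that the study names, 1 was called in BTSO over this interval. None of 18 citrate and malate genes, 9 proton pump genes, 19 genes of the GABA shunt and amino acid conversion and 33 flavonoid and anthocyanin genes was called, and their medians were -0.16, -0.05, -0.05 and 0.03. With the adjusted p alone 6 of the 33 flavonoid and anthocyanin genes were higher and 1 lower, against 14.2% and 11.4% of all genes tested. Their log2 differences ran from -0.72 to 2.27. By that rule 15 of 57 citrate cycle genes of the deposited annotation were lower and none higher. In the flavonoid pathway of the deposited annotation, 4 of 93 genes tested were lower and none higher (4.30%, against 2.88% of all genes). They were the locus Cs5g29930;Cs5g29940 (log2 difference -1.29), the BAHD acyltransferase gene Cs2g30570 (-1.09) and the hypothetical proteins orange1.1t03164 (-1.10) and Cs1g12660 (-1.01). Single libraries decided 3 of these calls. That of Cs2g30570 was lost without 60 DAS replicate 1 (log2 difference -0.99) or 90 DAS replicate 1 (-0.94), and that of orange1.1t03164 without 60 DAS replicate 3 (-0.79) or 90 DAS replicate 2 (-0.98). The call of Cs1g12660 was lost without 60 DAS replicate 1 (-0.99), 60 DAS replicate 2 (-0.75) or 90 DAS replicate 1 (-0.63). None of 54 cytosolic ribosomal protein genes or 27 mitochondrial respiration genes was called either. The proton pump gene PH8 (Cs1g16150) had 3.98, 7.28 and 3.4 FPKM at 90 DAS, against 3.11, 3.41 and 2.58 FPKM at 60 DAS (log2 difference 0.49 ± 0.25, adjusted p = 0.159). The phosphoenolpyruvate carboxykinase-like gene named PEPCK1 (Cs3g16700) had 278, 364 and 292 FPKM at 90 DAS, against 325, 391 and 325 FPKM at 60 DAS (log2 difference -0.16 ± 0.13, adjusted p = 0.408). PEPCK2 (Cs1g20920) had 42.2, 18.6 and 23.8 FPKM at 90 DAS, against 15.9, 12.6 and 26 FPKM at 60 DAS (log2 difference 0.59 ± 0.26, adjusted p = 0.103). The libraries of the 2 days overlapped in all 3 genes. For PEPCK1, the most abundant of the citrate list, the 95% interval of the log2 difference was -0.44 to 0.11.

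Of the anthocyanin genes, the chalcone isomerase CHI (Cs7g29780) had 0.677 ± 0.158 FPKM at 90 DAS and 0.792 ± 0.172 FPKM at 60 DAS (log2 difference -0.10 ± 0.15, adjusted p = 0.70). Flavanone 3-hydroxylase F3H (Cs1g25280) had 6.4 ± 0.939 FPKM at 90 DAS and 5.1 ± 1.16 FPKM at 60 DAS (log2 difference 0.29 ± 0.20, adjusted p = 0.323), and flavonoid 3'-hydroxylase (Cs5g11730) had 1.62 ± 0.26 FPKM at 90 DAS and 2.22 ± 0.813 FPKM at 60 DAS (log2 difference -0.27 ± 0.20, adjusted p = 0.343). The 1 called gene, which the lists missed because its description is that of a hypothetical protein, was the glutathione S-transferase gene GST (Cs6g15900), which carries anthocyanins towards the vacuole, with 0.423, 0.407 and 0.695 FPKM at 90 DAS, against 1.31, 2.34 and 4.33 FPKM at 60 DAS (log2 difference -1.20 ± 0.32, adjusted p = 0.00774). These levels were low throughout, since in TBO its means were 417 FPKM at 90 DAS and 785 FPKM at 60 DAS, and the call was lost without 60 DAS replicate 3 (log2 difference -0.88). Of the regulators, the MYB factor PH4 (Cs9g03070) had 1.75 ± 0.803 FPKM at 90 DAS and 1.67 ± 0.478 FPKM at 60 DAS (log2 difference 0.01 ± 0.23, adjusted p = 0.983). None of 4 further regulators was called. The log2 difference was 0.21 in ATC3H64 (Cs4g14220, adjusted p = 0.231) and -0.08 in HAC12 (Cs6g19010, adjusted p = 0.726). It was 0.18 in CHR4 (Cs2g11400, adjusted p = 0.411) and -0.01 in FAR1 (Cs2g11450, adjusted p = 0.939). Those of PH4, FAR1 and HAC12 changed sign when single libraries were left out.

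The same interval in TBO, which shares no library with BTSO, had 213 genes higher (1.28%) and 259 lower (1.56%) on the same rule. Both tests used the same estimate of each gene's spread, so the calls in the 2 varieties are not independent. Of the 268 genes higher in BTSO, 60 were also called higher in TBO, which is 22.4% of the BTSO set and 28.2% of the TBO set, and 2 were called lower. Of the 210 genes lower in BTSO, 87 were also called lower, 41.4% of the BTSO set and 33.6% of the TBO set, and none was called higher. The sign was the same in TBO in 82.5% of the higher and 96.2% of the lower genes, against 70.4% of all genes tested. Across all genes Pearson's r between the changes of the 2 varieties was 0.535, as a description in which all genes share the same libraries. Threonine aldolase, for example, had 48.3 FPKM at 90 DAS and 140.1 FPKM at 60 DAS in TBO, and expansin-like A1 had 75.2 and 19.6 FPKM, in the directions seen in BTSO. The medians of the log2 difference in TBO were 0.58 for the genes higher in BTSO and -0.94 for those lower in BTSO, and those in BTSO, which chose the genes, were 1.25 and -1.29.

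A test of the difference itself, the change in BTSO minus the change in TBO, called 143 genes (0.863%), with 97 on the positive (0.585%) and 46 on the negative side (0.277%). The split of these calls was 82 and 15 by edgeR and 198 and 50 by DESeq2. The number called was 82 without BTSO 90 DAS replicate 2, 86 without TBO 90 DAS replicate 1 and 87 without TBO 90 DAS replicate 3. Among the 478 genes called in BTSO, 31 were of this kind, 23 of the higher and 8 of the lower ones. The 478 were chosen by their change in BTSO, and the same BTSO libraries enter the difference. The number, size and sign of these differences are therefore not independent of that choice. Of these 31, the smallest adjusted p was that of a probable protein phosphatase 2C 75 (Cs9g16370), of the family that holds back abscisic acid signals. It had 5.2, 0.899 and 1.68 FPKM at 90 DAS, against 0.526, 0 and 0.148 FPKM at 60 DAS in BTSO (log2 difference 1.39 ± 0.27, adjusted p = 6.10e-04). Its means in TBO were 0.55 FPKM at 90 DAS and 3.17 FPKM at 60 DAS, and the log2 change in BTSO minus that in TBO was 2.82 ± 0.38 (SE, limma adjusted p = 2.63e-04). In BTSO alone its call was lost without 90 DAS replicate 1 (log2 difference 0.90). The locus Cs8g15890;Cs8g15900 was called higher in BTSO and lower in TBO. It had 8.23 ± 2.47 FPKM at 90 DAS and 2.84 ± 0.904 FPKM at 60 DAS in BTSO and 37.2 FPKM at 90 DAS and 85.3 FPKM at 60 DAS in TBO (log2 difference of the changes 2.41 ± 0.34, adjusted p = 5.60e-04). Cs3g10410, an abundant hypothetical protein with the annotation of a cell wall esterase, fell in BTSO. It had 179, 156 and 179 FPKM at 90 DAS, against 348, 366 and 351 FPKM at 60 DAS (log2 difference -1.05 ± 0.17, adjusted p = 8.96e-05). Its TBO means were 45.6 FPKM at 90 DAS and 34.6 FPKM at 60 DAS (log2 difference of the changes -1.44 ± 0.24, adjusted p = 0.00251). Its call in BTSO was lost without 90 DAS replicate 2 (log2 difference -0.99).

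Some genes described above also differed between the varieties. TPP C rose in BTSO and had means of 0.689 and 1.1 FPKM at 90 and 60 DAS in TBO (log2 difference of the changes 1.54 ± 0.27, adjusted p = 0.00402). XTH31-like had 0.28 and 0.0949 FPKM in TBO (log2 difference of the changes 1.71 ± 0.31, adjusted p = 0.00549). In both genes the change in BTSO was the more positive one, and the difference in XTH31-like was not called by edgeR (adjusted p = 0.476), by DESeq2 (adjusted p = 0.71) or with a pseudocount of 0.1. The polygalacturonase had 2.6 and 4.88 FPKM in TBO, a smaller fall than in BTSO (log2 difference of the changes -1.48 ± 0.35, adjusted p = 0.0273). This call was lost without BTSO 60 DAS replicate 1, BTSO 90 DAS replicate 2 or 3, TBO 60 DAS replicate 3 or TBO 90 DAS replicate 1 or 3, with adjusted p of 0.0532 to 0.080. The 22.0 kDa heat shock protein had 33.1 and 36.5 FPKM in TBO (log2 difference of the changes 1.19 ± 0.26, adjusted p = 0.0187), and the call was lost without BTSO 60 DAS replicate 3, BTSO 90 DAS replicate 2 or TBO 90 DAS replicate 1 or 3 (adjusted p 0.0503 to 0.0599). The abscisic acid 8'-hydroxylase had 6.64 and 9.71 FPKM in TBO (log2 difference of the changes 1.58 ± 0.41, adjusted p = 0.0397). It was called in 13 of 23 fits and was lost without BTSO 60 DAS replicate 2 or 3, BTSO 90 DAS replicate 1 or 2, TBO 60 DAS replicate 2 or 3 or TBO 90 DAS replicate 1 or 3, with adjusted p of 0.0695 to 0.121. Some of these differences were also lost in the fit on only the 12 libraries of 60 and 90 DAS. The limma adjusted p there was 0.0891 in XTH31-like, 0.0953 in the 22.0 kDa heat shock protein and 0.0915 in the abscisic acid 8'-hydroxylase. For SPS4, valencene synthase and expansin-like A1 the difference of the changes was not called, at -0.13, -0.28 and -0.09 on the log2 scale with limma adjusted p of 0.874, 0.61 and 0.932, which does not show that the varieties changed alike. The sign in SPS4 and expansin-like A1 turned in several alternatives.

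**Figure D5:**
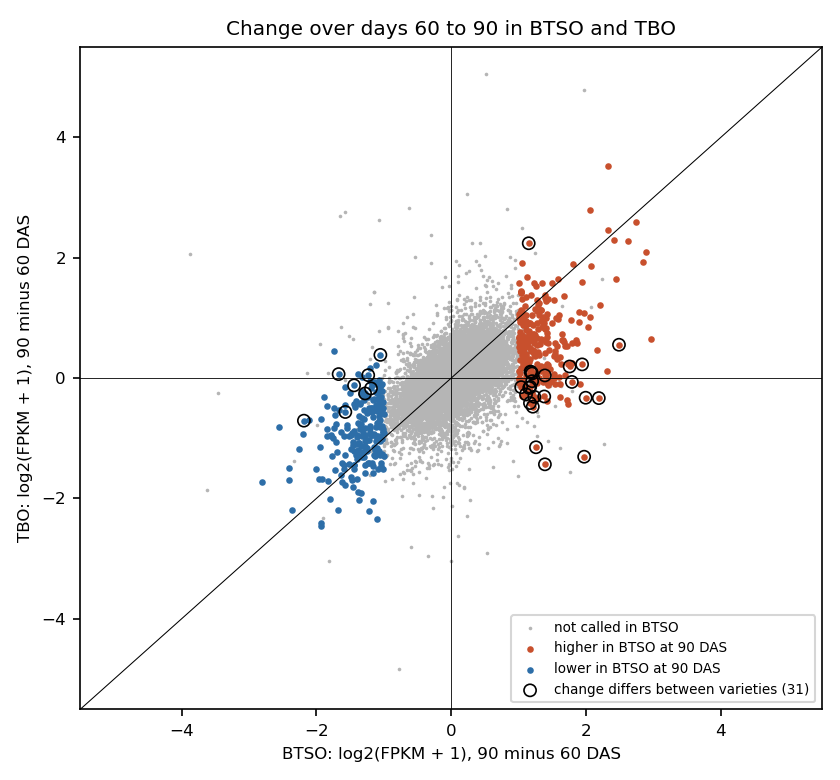
Log2 difference on log2(FPKM + 1), 90 DAS minus 60 DAS, of each of the 16578 genes in BTSO (x axis) and in TBO (y axis). Orange (268 higher) and blue (210 lower) points were called in BTSO, and the line marks equal change. Circles mark the 31 called genes whose change differed between the varieties, 23 on the right and 8 on the left.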

How the data were processed

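RNA-seq of juice sacs was analysed. Per the labels and the study's methods, poly(A) RNA was sequenced in pairs, and the authors removed low-quality and ribosomal reads. They mapped the reads with HISAT2 2.0 and assembled transcripts with StringTie 1.3.0. The authors deposited FPKM per gene and library, and estimated counts, which need not be whole and exceed the mapped reads, so they are not read numbers. The submitters' processing notes name the build mm8, a mouse build, so the build behind the few coordinates printed for these orange genes is not settled. No column belonged to another series. Replicates are samples that each pooled several fruit, and nothing in the labels says which fruit or chamber they shared. The limma p-values rest on a spread between pooled samples that is estimated over all 10 groups, and they do not measure the spread between single fruit.

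FPKM of all 30 libraries (10 groups of 3) was tested as log2(FPKM + 1) with limma 3.58.1 (R 4.3.3), for genes with FPKM of at least 1 in 3 libraries, with Benjamini-Hochberg adjustment over all 16578 genes. A fold on this scale understates the change of low genes. Errors after ± are SD of FPKM (n = 3) or SE of a log2 difference. Single values were compared with exact two-sided permutation tests. The limma fit was tested on simulated data, where it recovered 79% of genes changed 3-fold and 89% of those changed 6-fold, with 5 false calls, and for the difference between the varieties 74% and 87%, with 15 false calls. The simulated counts were drawn gene by gene, without deviations that many genes of a library share. These numbers are therefore not the error rate in the real libraries. Alternatives were a pseudocount of 0.1, other filters and scalings, the fit on 6 libraries, edgeR 4.0.16 and DESeq2 1.42.0 on the rounded estimated counts, a replicate block and leaving out each library.

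Members and gene lists were chosen with earlier results of these data known. Named genes were the 15 largest differences in each direction without overlap and with a mean of at least 5 FPKM, up to 3 called members per list and direction or else its most abundant member, the study's own genes, and the 10 smallest adjusted p of the difference from TBO among called genes. Cs3g01820, Cs5g27060, Cs6g21850, Cs5g09220, Cs9g14590, Cs4g07840, Cs6g06530, orange1.1t00634, Cs5g10550, Cs1g23160, Cs1g23170, Cs1g23200, Cs1g22020, Cs4g11160;Cs4g11190, Cs6g16350, Cs3g14880, orange1.1t00054, Cs1g18540 and Cs2g14990 were chosen after their values were seen, as were the pathways of the deposited annotation and the genes named from them.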

Additional observations from a re-analysis of the deposited data

Results flagged for a closer look

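Of the 31 genes called in BTSO whose change differed between the varieties, the 18 named in the text are given here. In them the change between 60 and 90 DAS differed between the varieties by limma's test of the difference, with a Benjamini-Hochberg adjusted p under 0.05 and a log2 change in BTSO minus that in TBO beyond 1. The values below are these differences of the changes on log2(FPKM + 1). The genes were chosen by their change in BTSO, whose libraries also enter the difference, so its size and sign depend on that choice. The difference was positive at 3.28 in inorganic pyrophosphatase 1 (Cs1g18540), 2.82 in protein phosphatase 2C 75 (Cs9g16370), 2.52 in the dnaJ homolog (Cs2g26590) and 2.41 in the locus Cs8g15890;Cs8g15900. It was 1.94 in the karrikin response gene Cs1g25570, 1.71 in XTH31-like (Cs8g15720), 1.58 in abscisic acid 8'-hydroxylase 3-like (Cs3g23530), 1.56 in the assembled locus MSTRG.10369 and 1.54 in TPP C (Cs9g18290). Smaller positive values were 1.38 in the flavin-dependent oxidoreductase FOX2 (Cs2g10070), 1.35 in the receptor-like kinase At4g10390 (Cs5g01020), 1.32 in the hypothetical protein Cs2g10630 and 1.19 in the 22.0 kDa heat shock protein (Cs5g18500). It was negative at -1.74 in Cs2g01770, which has no description, -1.48 in the polygalacturonase (Cs2g27910), -1.44 in the wall esterase-like gene Cs3g10410, -1.02 in the beta-xylosidase orange1.1t02681 and -1.01 in the O-acyltransferase WSD1-like gene Cs2g14990, from a family that makes wax esters.

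The inorganic pyrophosphatase gene Cs1g18540 had means of 7.01 FPKM at 90 DAS and 1.08 FPKM at 60 DAS in BTSO and of 1.22 and 5.65 FPKM at 90 and 60 DAS in TBO. Its call in BTSO was lost without 60 DAS replicate 2 (limma adjusted p = 0.0587) or 90 DAS replicate 1 (limma adjusted p = 0.0725). The difference between the varieties in Cs1g18540, the largest of those given, was called in 12 of 23 fits. It was not called by edgeR (adjusted p = 0.0646), with a pseudocount of 0.1 (adjusted p = 0.0586) or in the fit on 12 libraries (adjusted p = 0.0595). It was lost without BTSO 60 DAS replicate 2 or 3, BTSO 90 DAS replicate 1 or 2, TBO 60 DAS replicate 1 or 3 or TBO 90 DAS replicate 1 or 3 (adjusted p 0.0556 to 0.0867).

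That in Cs2g14990 was called in 5 of 23 fits. By edgeR the difference of the changes was -0.44 (adjusted p = 0.702) and by DESeq2 -0.44 (adjusted p = 0.711), and with a replicate block the adjusted p was 0.0598. It kept its call without BTSO 60 DAS replicate 3 or BTSO 90 DAS replicate 3, and without each of the other 10 libraries the adjusted p was 0.0532 to 0.129. In the beta-xylosidase orange1.1t02681 it was called in 15 of 22 fits. It was lost by edgeR (adjusted p = 0.0571) and without BTSO 60 DAS replicate 2, BTSO 90 DAS replicate 2 or 3, TBO 60 DAS replicate 2 or TBO 90 DAS replicate 3 (adjusted p 0.0513 to 0.0759). The dnaJ homolog lost its call without TBO 60 DAS replicate 3 (adjusted p = 0.0523). The fit on 12 libraries also lost the differences in the dnaJ homolog (limma adjusted p = 0.0603), the beta-xylosidase (0.0567) and Cs1g25570 (0.0714). What lies behind these differences was not tested.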

How the results depend on the processing

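Of 478 calls between 90 and 60 DAS in BTSO, 464 were kept in 860 calls (478 higher, 382 lower) with a pseudocount of 0.1, 308 in 313 (157 higher, 156 lower) in the fit on 6 libraries, 445 in 850 (448 higher, 402 lower) by edgeR and 446 in 927 (495 higher, 432 lower) by DESeq2. Leaving out 1 library gave 446 to 571 calls, with 244 to 305 higher and 187 to 266 lower, and kept between 352 calls (without 90 DAS replicate 1) and 421. For the difference between the varieties, 143 calls (97 higher, 46 lower) became 90 (22 lower) with FPKM of at least 5, 72 (52 and 20) in the fit on 12 libraries, 248 (198 and 50) by DESeq2 and 360 (251 and 109) with an unadjusted p. The lower calls were 29 with a pseudocount of 0.1 and 15 by edgeR, against 82 higher by edgeR. Leaving out 1 library gave 82 to 197 calls, 60 to 147 higher and 18 to 60 lower, the fewest without BTSO 90 DAS replicate 2. The cause was not tested. The other settings stayed within 1.5 times.

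Nothing in the labels pairs the samples by replicate number. Deviations of same-numbered libraries correlated at -0.04, 0.30 and -0.30 in BTSO and at 0.12, 0.22 and 0.07 in TBO. These correlations cannot settle whether samples were paired, since each deviation is taken from a mean of only 3 libraries. In TBO, unlike BTSO, every library correlated best with its own number, which is a hint from the data and not from the design. A fit with the replicate block made 482 calls, 269 higher and 213 lower, and 475 of the 478 were kept. For the difference between the varieties the block gave 137 calls, with 130 of the 143 kept.

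No named gene that was called changed direction. Of 131 such genes, 28 lost their call without 90 DAS replicate 1, 23 without 60 DAS replicate 2 and 31 in the fit on 6 libraries. The losses in that fit are named above for some of these genes only. Values that were not called changed sign around 0. The difference of the changes between the varieties in SPS4 (Cs5g19060) was 0.053 with a pseudocount of 0.1, 0.16 by edgeR and 0.15 by DESeq2, and in expansin-like A1 (Cs8g01880) it was 0.045 by edgeR and 0.037 by DESeq2. With 1 library left out the ranges were -0.33 to 0.046 in SPS4 and -0.32 to 0.20 in expansin-like A1. The log2 difference of PH4 (Cs9g03070) was -0.019 with a pseudocount of 0.1, -0.042 with quantile normalization and -0.13 to 0.28 with 1 library left out. That of Cs8g02310 was 0.027 with quantile normalization and -0.067 to 0.0094 with 1 library left out. With 1 library left out the ranges were -0.34 to 0.036 in Cs6g18900, -0.59 to 0.36 in Cs2g04110, -0.13 to 0.085 in FAR1 (Cs2g11450) and -0.19 to 0.052 in HAC12 (Cs6g19010).

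With 3 libraries a group, exact tests cannot reach p under 0.1, and changes of genes near 1 FPKM depend on the pseudocount.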

Other observations

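The deposited pathway annotation gave a second view of the same genes, with pathways chosen after the values were seen. In starch and sucrose metabolism 7 of 394 genes tested were called higher and 14 lower, 5.33% of its genes against 2.88% of all genes. This pathway is wider than its name, so its share is not one of sucrose and starch genes alone. Among its lower genes were the pectin-cutting polygalacturonase Cs2g27910 and Cs7g32220, annotated as a flavonoid glucosyltransferase. In plant hormone signal transduction 13 of 445 were higher and 8 lower (4.72%). None of 131 glycolysis genes or 57 citrate cycle genes was called. With the adjusted p alone 15 of the 57 citrate cycle genes were lower and none higher, with a median log2 difference of -0.18. Over all genes tested that rule gave 11.4% lower and 14.2% higher. In oxidative phosphorylation 4 of 154 genes were lower and none higher (2.60%, near the share of all genes). These were Cs1g18560, annotated as an NADH-quinone oxidoreductase subunit, the hypothetical proteins Cs7g07300 and Cs7g26930, and Myb4 (Cs9g02640), which is known as a transcription factor. The call of Cs1g18560 was lost without 60 DAS replicate 1 (log2 difference -0.95). Shares below that of all genes were also found in protein processing in the endoplasmic reticulum (5 higher and 4 lower of 401, 2.24%), plant-pathogen interaction (7 and 5 of 611, 1.96%), the ribosome (4 and 2 of 338, 1.78%) and ubiquitin mediated proteolysis (0.518%). In glycine, serine and threonine metabolism 2 of 84 were higher and 1 lower (3.57%). Phenylpropanoid synthesis (4.66%) and flavonoid synthesis (4.30%) are described above.

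Assembled loci without a reference name made up 11.5% of the 478 called genes and 3.79% of the genes tested. Of 30 pairs of called genes that lie within 20 steps of each other in the reference numbering, 18 moved the same way and 12 the opposite way. One of the opposite pairs was thaumatin-like protein 1b (Cs1g25530) at -2.41 and the hypothetical protein Cs1g25510 at 1.34 on the log2 scale. Another was the oxidoreductase FOX2 gene Cs2g10070 at 1.11 and its neighbour Cs2g10080, annotated as reticuline oxidase-like, at -1.03, and reads of such related neighbours may be shared. The call of Cs2g10070 was lost without 90 DAS replicate 1 (log2 difference 0.95).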
